A study of Mus musculus with 8 samples.

Results

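The 33 genes described here carry glucose into the cell and break it down to pyruvate and lactate, or govern whether pyruvate enters the mitochondria. They were chosen by name from a table of RNA levels of 33504 genes, and each of the 33 names was found once. The table covers 8 libraries of mouse blood stem cell populations, all on a C57BL/6J background. FL-HSC (2 libraries) are hematopoietic stem cells of the fetal liver at embryonic day 14.5. Ex-HSC (3 libraries) have the stage in vitro. A culture of 4 days is described in the labels' protocols, where cells sorted from embryos were mixed with OP9 cells, a mouse stromal line, and kept as aggregates at an air-liquid interface in Myelocult medium with SCF, IL-3 and Flt3L, and the libraries named ex-HSC are taken here to come from it. Pre-HSC (3 libraries) come from embryonic day 11.5, and are precursors that do not yet engraft adult recipients. The protocols also name a Ly6a-GFP transgene carried by some sires, PD-1 null mice and cultures on Akt-EC cells, but tie none of these to a library. Sort gates are not stated in the labels, and neither is the origin of replicates (1 litter or culture, or several). A p-value therefore speaks of the spread among these 8 libraries, which may be technical.

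Glycolysis splits glucose into pyruvate and yields ATP without oxygen. Glucose transporters bring the sugar in, hexokinases trap it as glucose 6-phosphate, and phosphofructokinase commits it to breakdown, with fructose 2,6-bisphosphate as its activator. Lactate dehydrogenase turns pyruvate into lactate, which monocarboxylate transporters carry out, while pyruvate dehydrogenase kinases hold pyruvate back from the mitochondria. Adult blood stem cells are known for a glycolytic metabolism in a bone marrow poor in oxygen, and many genes of the pathway are known targets of hypoxia-inducible factors and of Myc. Most steps can be carried out by any of several isoenzymes, proteins from different genes that catalyse the same reaction.

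Levels are given in FPKM, a unit that divides fragments by transcript length and library size, so that genes can be compared with each other. Counts are not in the table, and depth is therefore unknown. Fold changes are given on the log2(FPKM + 1) scale with their standard error, or as the ratio of mean FPKM where written as a fold. Between 30 and 32 of the 33 genes reached 1 FPKM in a library. Ex-HSC replicate 2 stood apart from the other libraries: 24992 genes were above 0 there, against 15622 to 18374 in the other 7. Within ex-HSC, 28 of the 33 glycolysis genes were lowest in that library, as were 77.6% of the 13720 genes tested. The 12 blood stem and progenitor markers, Ptprc, Kit and Runx1 among them, summed to 777 and 867 FPKM in FL-HSC, to between 466 and 835 FPKM in ex-HSC and to between 495 and 580 FPKM in pre-HSC, and none was at 0 in any library. Markers of other cells moved with the groups. The 10 mast cell markers summed to 16 and 14.9 FPKM in FL-HSC, 2326 to 4990 FPKM in ex-HSC and 1.88 to 14.7 FPKM in pre-HSC, and the 12 endothelial markers to 381 and 437, 158 to 319 and 3497 to 3899 FPKM in these groups. Granulocyte markers summed to 618 and 507 FPKM in FL-HSC, 708 to 1031 FPKM in ex-HSC and 31.1 to 47.5 FPKM in pre-HSC, and skeletal muscle markers to 23.5 and 11.7, 19.4 to 26.2 and 19.4 to 57.7 FPKM. Of the mast cell markers, Tpsab1, Fcer1a and Gzmb were at 0 in both FL-HSC libraries, and Mcpt4, Tpsb2, Tpsab1 and Fcer1a in all 3 pre-HSC libraries. In bulk RNA, fewer cells of a type and less RNA per cell cannot be told apart.

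Together the 33 genes took 0.840% and 0.727% of all FPKM in FL-HSC, 0.849%, 0.785% and 0.832% of it in ex-HSC, and 0.562%, 0.579% and 0.601% in pre-HSC. Every FL-HSC and ex-HSC library was thus above every pre-HSC library, and the FL-HSC and ex-HSC values overlapped. Ldha alone made up the largest part of these sums, as its values below show. Of the 33 genes, 32 had 1 FPKM or more in at least 2 libraries and were tested, and the other, Pdk4, had at most 1.59 FPKM.

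**Figure D1:**
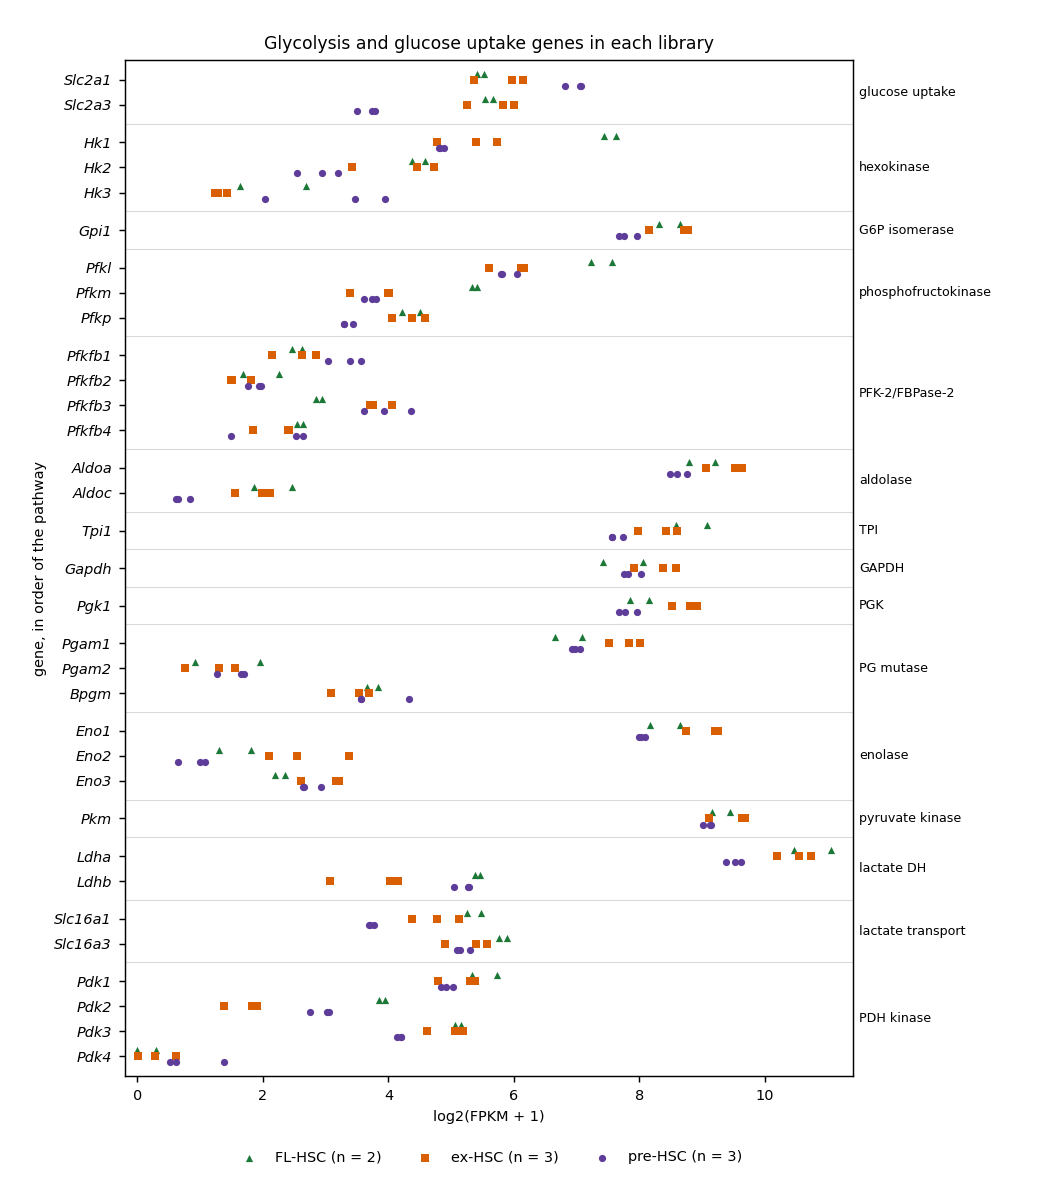
Level of each of the 33 genes as log2(FPKM + 1) on the horizontal axis, with 1 symbol per library: triangles for FL-HSC (n = 2), squares for ex-HSC (n = 3) and circles for pre-HSC (n = 3). Genes run down the page in the order of the pathway. Ldha is the highest gene in every library, Slc2a1 is highest in the 3 pre-HSC libraries, and Hk1, Pfkl and Pfkm are highest in the 2 FL-HSC libraries.

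Against pre-HSC, cultured ex-HSC had higher levels of genes at most steps of glycolysis. The glucose transporter gene Slc2a3 (log2 fold change 2.01), the enolase gene Eno2 (1.77), the hexokinase gene Hk2 (1.30), Pgk1 (0.94) and Ldha (0.99) were among those that rose. Slc2a1 (-1.15), Hk3 (-1.83), Ldhb (-1.44), Pdk2 (-1.23) and Pfkfb1 (-0.79) fell. In limma with Benjamini-Hochberg adjustment over all genes tested, 14 of the 32 genes rose, 5 fell and 13 did not pass an adjusted p of 0.05, so that 59.4% were called. Of all genes tested, 44.1% were called, 15.7% as higher and 28.4% as lower. The median log2 fold change was 0.40 over the 32 genes and -0.16 over all genes tested. The libraries of the groups did not overlap for 14 genes that were higher and 5 that were lower in ex-HSC, against a background of 19.9% and 35.5% of the genes tested. Without ex-HSC replicate 2, or with median-of-ratios scaling, 18 genes were higher and 5 lower. All 10 mast cell markers rose in the same comparison, and their part in these counts was not tested.

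FL-HSC differed from pre-HSC at steps from glucose uptake to lactate export. Hk1 (2.69), Slc2a3 (1.92), the phosphofructokinase genes Pfkm (1.66) and Pfkl (1.5) and the lactate transporter gene Slc16a1 (1.64) were among those that rose, and Slc2a1 (-1.51), Pfkfb3 (-1.07) and Pfkfb1 (-0.79) fell. In limma, 14 of the 32 genes rose, 3 fell and 15 did not pass, which is 53.1% called, against 43.3% of all genes tested, 22.9% of them higher and 20.4% lower. The median was 0.49 over the 32 genes and 0.13 over all genes tested. Libraries did not overlap for 20 genes that were higher and 4 that were lower in FL-HSC, and for 39.4% and 28.7% of the genes tested. Both comparisons against pre-HSC use the same 3 pre-HSC libraries.

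Between FL-HSC and ex-HSC the share of the 32 genes called was near that of all genes tested, with calls in both directions. Hk1 (2.23), Pfkl (1.44), Pfkm (1.58), Ldhb (1.67) and Pdk2 (2.19) were higher in FL-HSC, and these 5 were called under every alternative tried. The 6 genes called lower in FL-HSC were Pgk1 (-0.75), Pgam1 (-0.92), Eno1 (-0.66), Eno2 (-1.12) and Eno3 (-0.72), of the steps from 1,3-bisphosphoglycerate to phosphoenolpyruvate, and Pfkfb3 (-0.95). The other 21 did not pass. Of the 32 genes, 34.4% were called (15.6% higher, 18.8% lower), against 33.3% of all genes tested (24.1% higher, 9.15% lower). Of the 32, libraries did not overlap for 9 genes that were higher and 6 that were lower in FL-HSC, against 40.6% and 15.8% of the genes tested. The median was 0.25 over the 32 genes and 0.27 over all. Each of the 6 lower calls was lost in at least 1 alternative, all of them without an FL-HSC library. With median-of-ratios scaling, which moved the median of all genes to -0.020, 5 genes were higher and 11 lower, and with quantile normalization 7 were higher and 10 lower. With 1 FL-HSC library left, 5 were higher and 3 lower without FL-HSC replicate 1, and 5 higher and 1 lower without FL-HSC replicate 2.

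Scaling moved the background too. Median-of-ratios scaling moved the median log2 fold change of all genes from -0.16 to -0.011 in ex-HSC against pre-HSC, and from 0.13 to -0.0052 in FL-HSC against pre-HSC. The share of called genes that were higher was 35.6% as deposited and 48.8% after that scaling in ex-HSC against pre-HSC, 52.9% and 46.2% in FL-HSC against pre-HSC, and 72.5% and 49.9% in FL-HSC against ex-HSC. After that scaling the median over the 32 glycolysis genes was 0.33 in FL-HSC and 0.58 in ex-HSC against pre-HSC, and -0.064 in FL-HSC against ex-HSC. Genes that were then also called lower in FL-HSC relative to ex-HSC were Gapdh (-0.90), Aldoa (-0.76), Slc2a1 (-0.70), Pkm (-0.53) and Slc2a3 (-0.43).

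**Figure D2:**
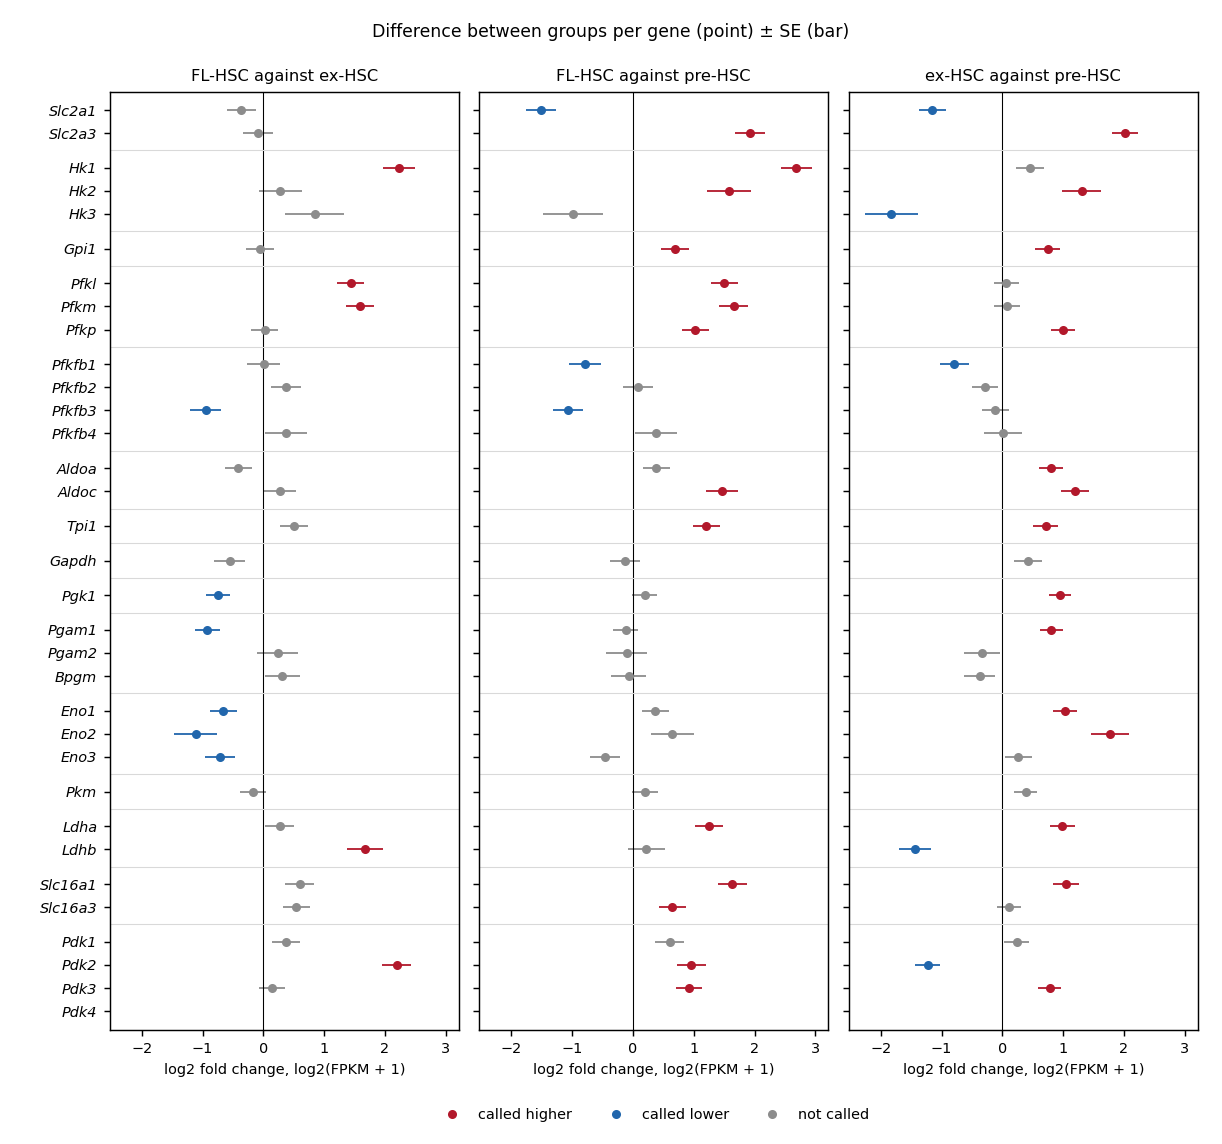
Log2 fold change per gene (point) ± SE (bar) from the limma fit of log2(FPKM + 1), for FL-HSC against ex-HSC (left), FL-HSC against pre-HSC (middle) and ex-HSC against pre-HSC (right). Red points are called higher, blue points lower and grey points not called at an adjusted p of 0.05, and Pdk4 was not tested. Slc2a1 and Slc2a3 lie on opposite sides of 0 in both comparisons against pre-HSC, and the genes from Pgk1 to Eno3 that are called in FL-HSC against ex-HSC lie left of 0.

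The windows around the start sites of 5 of these genes are shown because the genes stand for the main ways the levels differed: Ldha, the highest gene, Pgk1, higher in ex-HSC than in both other groups, Hk1 and Pfkl, highest in FL-HSC, and Slc2a1, highest in pre-HSC. Each runs from 250 bases before to 50 bases after a start, 5′ to 3′ on the gene's strand, from RefSeq on build GRCm38.p6. Capitals mark ACGTG on either strand (CACGT on the printed strand is its complement). These letters are a form of the core that hypoxia-inducible factors are known to bind, and CACGTG, which holds ACGTG on both strands, is a core that Myc is known to bind.
Ldha: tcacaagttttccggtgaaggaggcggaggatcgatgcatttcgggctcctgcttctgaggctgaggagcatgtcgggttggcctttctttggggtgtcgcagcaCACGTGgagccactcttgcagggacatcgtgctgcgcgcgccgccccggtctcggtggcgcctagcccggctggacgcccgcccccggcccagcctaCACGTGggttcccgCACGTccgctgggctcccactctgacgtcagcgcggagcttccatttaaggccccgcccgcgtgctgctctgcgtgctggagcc
Pgk1: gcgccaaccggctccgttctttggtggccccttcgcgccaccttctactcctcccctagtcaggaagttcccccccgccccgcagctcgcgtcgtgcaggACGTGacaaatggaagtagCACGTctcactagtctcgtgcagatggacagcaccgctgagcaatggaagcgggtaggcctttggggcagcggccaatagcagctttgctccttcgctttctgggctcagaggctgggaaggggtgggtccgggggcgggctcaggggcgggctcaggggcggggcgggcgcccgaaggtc
Hk1: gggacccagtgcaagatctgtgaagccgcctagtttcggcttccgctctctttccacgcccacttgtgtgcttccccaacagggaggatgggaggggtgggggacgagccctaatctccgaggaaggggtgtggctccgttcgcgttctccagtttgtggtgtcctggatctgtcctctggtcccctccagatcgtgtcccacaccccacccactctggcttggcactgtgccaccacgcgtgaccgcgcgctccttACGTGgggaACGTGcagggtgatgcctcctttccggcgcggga
Pfkl: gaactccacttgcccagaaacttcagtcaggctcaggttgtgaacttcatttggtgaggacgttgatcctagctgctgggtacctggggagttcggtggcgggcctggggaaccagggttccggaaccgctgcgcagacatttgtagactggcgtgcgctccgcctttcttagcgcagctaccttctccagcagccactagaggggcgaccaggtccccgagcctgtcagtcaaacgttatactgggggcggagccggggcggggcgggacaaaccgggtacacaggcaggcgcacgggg
Slc2a1: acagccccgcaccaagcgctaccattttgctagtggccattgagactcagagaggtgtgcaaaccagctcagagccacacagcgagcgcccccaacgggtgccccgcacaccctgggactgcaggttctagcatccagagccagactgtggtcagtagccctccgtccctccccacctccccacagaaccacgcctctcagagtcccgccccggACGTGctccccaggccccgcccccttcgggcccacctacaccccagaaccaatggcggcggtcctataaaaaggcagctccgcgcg
They lie at chr7:46845554-46845853 (plus strand) for Ldha, chrX:106186850-106187149 (plus strand) for Pgk1, chr10:62340372-62340671 (minus strand) for Hk1, chr10:78009758-78010057 (minus strand) for Pfkl and chr4:119108495-119108794 (plus strand) for Slc2a1. Ldha and Hk1 have 2 windows each, of which the one that holds ACGTG is printed, and the other holds none. The Ldha window held 3 matches to ACGTG, 2 of them inside CACGTG, the Pgk1 and Hk1 windows held 2 each, the Slc2a1 window 1 and the Pfkl window none. RefSeq windows were matched for 32 of the 33 genes, Slc2a3 being the other. ACGTG was found in 22 of their 51 windows (43.1%), against 19.6% of 32851 windows of all genes. Some windows of a gene overlap, as in Aldoa, so that a match can be counted more than once. Counted by gene, 18 of the 32 (56.2%) held it in at least 1 window, against 21.8% of 27025 genes. The alternative form GCGTG, not in capitals here, was in 51.0% of the 51 windows and 32.4% of all, and CACGTG was in 11.8% and 7.15%. By gene, GCGTG was in 62.5% of the 32 and 35.2% of all, and CACGTG in 18.8% and 8.09%. The gene counts were not matched for the number of windows, and the background holds all genes with a window, tested or not. Of the printed windows, those of Pfkl, Ldha, Hk1 and Slc2a1 hold GCGTG on either strand, and that of Pgk1 does not. A match describes the letters only.

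At the entry of glucose into the cell, the 2 transporter genes changed in opposite directions against pre-HSC. Slc2a1 encodes GLUT1, the transporter of basal glucose uptake in many cells, and had 44.9 and 41.6 FPKM in FL-HSC, 61.97, 40.04 and 70.03 FPKM in ex-HSC, and 112, 133 and 132 FPKM in pre-HSC (libraries in the order of their replicate numbers, here and below). All 3 pre-HSC libraries were above all 5 others, and the FL-HSC libraries lay within the range of ex-HSC. Slc2a1 fell in FL-HSC (0.344-fold, -1.51 ± 0.24 in log2, limma adjusted p = 0.00056) and in ex-HSC (0.456-fold, -1.15 ± 0.22 in log2, limma adjusted p = 0.00135) against pre-HSC. Slc2a3 encodes GLUT3, a transporter with a high affinity for glucose, and had 49.8 and 45.4 FPKM in FL-HSC, 55.5, 37.1 and 62.9 FPKM in ex-HSC, and 12.9, 10.3 and 12.4 FPKM in pre-HSC. All 5 FL-HSC and ex-HSC libraries were above all 3 pre-HSC libraries. Slc2a3 rose in FL-HSC (4.02-fold, 1.92 ± 0.24 in log2, limma adjusted p = 0.000109) and in ex-HSC (4.37-fold, 2.01 ± 0.22 in log2, limma adjusted p = 2.38e-05) against pre-HSC. The sum of both genes was 90.9 ± 5.503 FPKM in FL-HSC, 109 ± 28.8 FPKM in ex-HSC and 138 ± 11.3 FPKM in pre-HSC (mean ± SD, n = 2, 3 and 3), of which Slc2a3 made up (± SD here and for later shares) 52.4% ± 0.257 in FL-HSC, 47.6% ± 0.472 in ex-HSC and 8.697% ± 1.58 in pre-HSC.

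Neither transporter gene passed between FL-HSC and ex-HSC, with Slc2a1 at -0.36 ± 0.24, limma adjusted p = 0.278 and Slc2a3 at -0.088 ± 0.24, limma adjusted p = 0.808. This depended on ex-HSC replicate 2 and on scaling. Without that library Slc2a1 was called lower in FL-HSC (-0.60, limma adjusted p = 0.015). It was also called lower with median-of-ratios scaling (-0.70, limma adjusted p = 0.00694) and quantile normalization (-0.64, limma adjusted p = 0.00352). Slc2a3 was called lower with the same 2 scalings (-0.43, limma adjusted p = 0.0448, and -0.37, limma adjusted p = 0.0499). The 12 endothelial markers were lower in FL-HSC and in ex-HSC than in pre-HSC, with the sums given above, as were 12 and 11 of the 12 stromal markers, which summed to 8.59 and 14.4 FPKM in FL-HSC, 15.3 to 32.2 FPKM in ex-HSC and 390.1 to 737 FPKM in pre-HSC. Dcn and Lum of that list were at 0 in both FL-HSC libraries. Their part in the levels of Slc2a1 was not tested.

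Hexokinases phosphorylate glucose, and FL-HSC differed from both other groups by their level of Hk1. Hk1, the widely expressed form that binds mitochondria, had 196 and 172 FPKM in FL-HSC, 51.9, 26.3 and 41 FPKM in ex-HSC, and 27.2, 28.4 and 27.1 FPKM in pre-HSC. Both FL-HSC libraries were far above every other library, while ex-HSC and pre-HSC overlapped. Hk1 rose in FL-HSC against pre-HSC (6.66-fold, 2.69 ± 0.26 in log2, limma adjusted p = 1.53e-05) and was higher than in ex-HSC (4.63-fold, 2.23 ± 0.26 in log2, limma adjusted p = 0.000159). Between ex-HSC and pre-HSC it did not pass (0.46 ± 0.23, limma adjusted p = 0.134), but did without ex-HSC replicate 2 (0.72, adjusted p = 0.00346) and with median-of-ratios scaling (0.63, adjusted p = 0.00549). Hk2, an inducible form known as a target of hypoxia-inducible factors, had 19.7 and 23.02 FPKM in FL-HSC, 20.99, 9.75 and 25.3 FPKM in ex-HSC, and 6.72, 4.85 and 8.18 FPKM in pre-HSC. Every FL-HSC and ex-HSC library was above every pre-HSC library, with ex-HSC replicate 2 the lowest of the 5. Hk2 rose in FL-HSC (1.58 ± 0.36 in log2, limma adjusted p = 0.00461) and ex-HSC (1.30 ± 0.32 in log2, limma adjusted p = 0.00668) against pre-HSC.

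Hk3, a hexokinase of myeloid cells, had 5.46 and 2.099 FPKM in FL-HSC, 1.45, 1.68 and 1.36 FPKM in ex-HSC, and 10.01, 3.11 and 14.4 FPKM in pre-HSC. The ex-HSC libraries were the 3 lowest, and the pre-HSC libraries ranged widely. Hk3 fell in ex-HSC against pre-HSC (-1.83 ± 0.44 in log2, limma adjusted p = 0.00583) and missed the threshold in FL-HSC against pre-HSC (-0.98 ± 0.49, limma adjusted p = 0.125), where it was called lower without pre-HSC replicate 2 (-1.54, adjusted p = 0.00471). The 11 macrophage markers in the table, Csf1r and Cd68 among them, summed to 390.5 and 56.9 FPKM in FL-HSC, 220.4, 170 and 155 FPKM in ex-HSC, and 663, 224 and 1406 FPKM in pre-HSC. Hk3 and these markers were both higher in FL-HSC replicate 1 than replicate 2, and both lowest in replicate 2 of pre-HSC. In ex-HSC their orders differed, with Hk3 highest in replicate 2 and the markers highest in replicate 1. FL-HSC replicate 2 had the lowest marker sum of all libraries, and its Hk3 was above that of every ex-HSC library. The part of macrophage RNA in Hk3 was not tested. As shares of the 3 genes' sum, which was 209 ± 16.96 FPKM in FL-HSC, 59.9 ± 19.5 FPKM in ex-HSC and 43.3 ± 6.66 FPKM in pre-HSC, Hk1 made up 87.9% ± 0.956 in FL-HSC, 66.7% ± 5.301 in ex-HSC and 64.9% ± 12.04 in pre-HSC, Hk2 10.3% ± 1.95 in FL-HSC, 30.5% ± 6.103 in ex-HSC and 15.03% ± 1.59 in pre-HSC, and Hk3 1.77% ± 0.995 in FL-HSC, 2.81% ± 1.43 in ex-HSC and 20.1% ± 10.5 in pre-HSC.

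Gpi1, which turns glucose 6-phosphate into fructose 6-phosphate, had 402 and 318 FPKM in FL-HSC, 417, 283 and 435 FPKM in ex-HSC, and 203, 215 and 249.2 FPKM in pre-HSC. Every FL-HSC and ex-HSC library was above every pre-HSC library. Gpi1 rose in FL-HSC (0.69 ± 0.23 in log2, limma adjusted p = 0.0322) and ex-HSC (0.74 ± 0.20 in log2, limma adjusted p = 0.0129) against pre-HSC, but the calls were lost when single libraries were left out. In FL-HSC this was so without FL-HSC replicate 1 (adjusted p = 0.201) and without pre-HSC replicate 1 (0.105) or 2 (0.0847), and in ex-HSC without ex-HSC replicate 1 (0.0549) or 3 (0.0512) and without pre-HSC replicate 1 (0.0584).

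At phosphofructokinase, the committed step, FL-HSC stood above both other groups for the liver-type gene Pfkl and the muscle-type gene Pfkm. Pfkl had 188 and 149 FPKM in FL-HSC, 70.3, 47.8 and 67.9 FPKM in ex-HSC, and 55.4, 65.6 and 54.7 FPKM in pre-HSC. Pfkm had 41.6 and 39.4 FPKM in FL-HSC, 14.9, 9.43 and 15.1 FPKM in ex-HSC, and 12.9, 12.3 and 11.3 FPKM in pre-HSC. For both genes the 2 FL-HSC libraries were above all 6 others, and ex-HSC and pre-HSC overlapped. Pfkl rose in FL-HSC against pre-HSC (2.87-fold, 1.5 ± 0.22 in log2, limma adjusted p = 0.000345) and was higher than in ex-HSC (2.71-fold, 1.44 ± 0.22 in log2, limma adjusted p = 0.000946). Pfkm likewise rose against pre-HSC (3.33-fold, 1.66 ± 0.23 in log2, limma adjusted p = 0.000239) and was higher than in ex-HSC (3.09-fold, 1.58 ± 0.23 in log2, limma adjusted p = 0.000676). Neither passed between ex-HSC and pre-HSC, with Pfkl at 0.066 ± 0.20, limma adjusted p = 0.814 and Pfkm at 0.073 ± 0.21, limma adjusted p = 0.801. With quantile normalization Pfkm was called higher in ex-HSC than in pre-HSC (0.39, limma adjusted p = 0.0141).

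The platelet-type gene Pfkp did not follow them. It had 21.6 and 17.6 FPKM in FL-HSC, 23.1, 15.6 and 19.7 FPKM in ex-HSC, and 9.79, 8.75 and 8.78 FPKM in pre-HSC. FL-HSC lay within the range of ex-HSC, and both were above pre-HSC. Pfkp rose in FL-HSC (1.02 ± 0.22 in log2, limma adjusted p = 0.00382) and ex-HSC (1.00 ± 0.20 in log2, limma adjusted p = 0.00192) against pre-HSC, and its share of the step was 8.596% ± 0.0261 in FL-HSC, 20.7% ± 1.24 in ex-HSC and 11.5% ± 1.25 in pre-HSC. Pfkl was the main form in every library, at 73.5% ± 1.79 in FL-HSC, 65.6% ± 0.585 in ex-HSC and 73.3% ± 2.404 in pre-HSC.

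The PFKFB enzymes make and break down fructose 2,6-bisphosphate, and none of their 4 genes rose in either comparison against pre-HSC. Pfkfb3, whose product mostly makes the activator, had 6.67 and 6.21 FPKM in FL-HSC, 15.7, 12.1 and 12.6 FPKM in ex-HSC, and 14.2, 11.2 and 19.5 FPKM in pre-HSC. The FL-HSC libraries were the 2 lowest, and ex-HSC and pre-HSC overlapped. Pfkfb3 fell in FL-HSC against pre-HSC (-1.07 ± 0.25 in log2, limma adjusted p = 0.00607) and was lower than in ex-HSC (-0.95 ± 0.25 in log2, limma adjusted p = 0.0157), where the call was lost without FL-HSC replicate 1 (adjusted p = 0.0563) or 2 (0.0769). Pfkfb1, the liver and muscle form, had 4.497 and 5.16 FPKM in FL-HSC, 6.202, 3.402 and 5.19 FPKM in ex-HSC, and 9.46, 7.23 and 10.8 FPKM in pre-HSC. Pre-HSC was above the other groups in every library. Pfkfb1 fell in FL-HSC (-0.79 ± 0.27 in log2, limma adjusted p = 0.0343) and ex-HSC (-0.79 ± 0.24 in log2, limma adjusted p = 0.02) against pre-HSC, and both calls were lost without pre-HSC replicate 1 (adjusted p = 0.0988 and 0.0732) and without pre-HSC replicate 3 (0.107 and 0.0778). In FL-HSC the call was also lost without FL-HSC replicate 1 (0.146) or 2 (0.071). In ex-HSC it was also lost with quantile normalization, which gave -0.40 (adjusted p = 0.0693).

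Pfkfb2, the form abundant in heart, averaged 2.999 ± 1.09 FPKM in FL-HSC, 2.05 ± 0.387 FPKM in ex-HSC and 2.71 ± 0.295 FPKM in pre-HSC, and Pfkfb4, a hypoxia-inducible form, averaged 5.03 ± 0.282 FPKM in FL-HSC, 3.75 ± 1.01 FPKM in ex-HSC and 3.93 ± 1.86 FPKM in pre-HSC (± SD, n = 2, 3 and 3). Neither passed in any of the 3 comparisons. Within the step, Pfkfb3 was the highest of the 4 genes in every library, and its share was 33.5% ± 3.34 in FL-HSC, 55.96% ± 4.17 in ex-HSC and 48.5% ± 3.33 in pre-HSC.

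**Figure D3:**
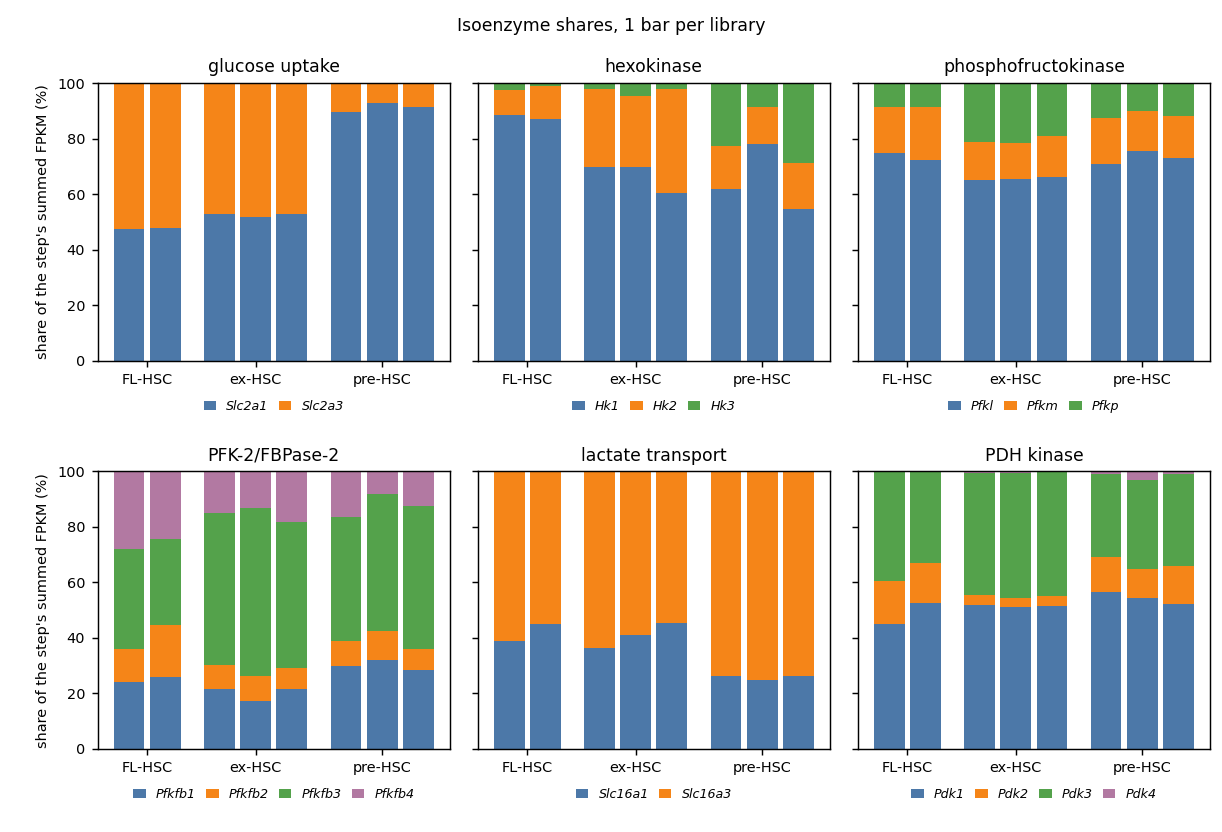
Share of each isoenzyme gene in the summed FPKM of its step (vertical axis, %), with 1 bar per library, for 6 steps with several genes. Each panel shows FL-HSC (2 bars), ex-HSC (3 bars) and pre-HSC (3 bars), and colours mark genes. Slc2a3 makes up 47.3% to 52.6% of the transporter sum in the FL-HSC and ex-HSC libraries and 7.20% to 10.3% in pre-HSC, and Pdk2 makes up 3.09% to 3.46% of its step in ex-HSC and 10.6% to 15.4% in the other libraries.

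Aldolases split fructose 1,6-bisphosphate. Aldoa, the main form in every library, had 587 and 444 FPKM in FL-HSC, 797, 535 and 736 FPKM in ex-HSC, and 358, 387 and 433 FPKM in pre-HSC. Every ex-HSC library and every FL-HSC library was above the 3 pre-HSC libraries. Aldoa rose in ex-HSC (0.79 ± 0.20 in log2, limma adjusted p = 0.008) and did not pass in FL-HSC (0.38 ± 0.22, limma adjusted p = 0.191) against pre-HSC. In FL-HSC against ex-HSC it was at -0.41 ± 0.22, limma adjusted p = 0.182, and without ex-HSC replicate 2 it was called lower (-0.58, limma adjusted p = 0.039). Aldoc, known from brain, was low, with 2.61 and 4.54 FPKM in FL-HSC, 2.97, 1.95 and 3.34 FPKM in ex-HSC, and 0.781, 0.536 and 0.561 FPKM in pre-HSC. Its FL-HSC and ex-HSC libraries were all above pre-HSC. Aldoc rose in FL-HSC (1.46 ± 0.26 in log2, limma adjusted p = 0.00116) and ex-HSC (1.19 ± 0.23 in log2, limma adjusted p = 0.00181) against pre-HSC, yet it reached at most 1.01% of the step in any library.

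Tpi1, which interconverts the products of aldolase, had 536 and 384 FPKM in FL-HSC, 343, 252 and 385 FPKM in ex-HSC, and 188, 188 and 212 FPKM in pre-HSC. Pre-HSC was lowest in all 3 libraries. Tpi1 rose in FL-HSC (1.21 ± 0.23 in log2, limma adjusted p = 0.00167) and ex-HSC (0.71 ± 0.21 in log2, limma adjusted p = 0.0158) against pre-HSC, and in ex-HSC the call was lost without pre-HSC replicate 1 (adjusted p = 0.06) or 2 (0.0544) and without ex-HSC replicate 1 (0.057) or 3 (0.0628). Gapdh, the next enzyme and a common reference gene, had 264 and 170.2 FPKM in FL-HSC, 332, 239 and 382 FPKM in ex-HSC, and 215, 224 and 260.1 FPKM in pre-HSC. All 3 groups overlapped. Gapdh did not pass in any comparison, with -0.55 ± 0.25, limma adjusted p = 0.117 in FL-HSC against ex-HSC, -0.13 ± 0.25, limma adjusted p = 0.701 in FL-HSC against pre-HSC and 0.42 ± 0.23, limma adjusted p = 0.156 in ex-HSC against pre-HSC. Without ex-HSC replicate 2 it was called higher in ex-HSC than in pre-HSC (0.61, adjusted p = 0.0369) and lower in FL-HSC relative to ex-HSC (-0.74, adjusted p = 0.0362).

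From phosphoglycerate kinase to enolase, ex-HSC had the highest levels of the main genes. Pgk1, which makes the first ATP of the pathway, had 284 and 229 FPKM in FL-HSC, 449, 366 and 482 FPKM in ex-HSC, and 203, 218 and 249.3 FPKM in pre-HSC. The 3 ex-HSC libraries were above all others, and FL-HSC and pre-HSC overlapped. Pgk1 rose in ex-HSC against pre-HSC (1.93-fold, 0.94 ± 0.18 in log2, limma adjusted p = 0.00146) and, set against ex-HSC, was lower in FL-HSC (0.593-fold, -0.75 ± 0.20 in log2, limma adjusted p = 0.0163). Pgam1, the main phosphoglycerate mutase, had 134 and 99.6 FPKM in FL-HSC, 227, 183 and 256 FPKM in ex-HSC, and 121, 124 and 132 FPKM in pre-HSC. Again all 3 ex-HSC libraries were the highest. Pgam1 rose in ex-HSC against pre-HSC (1.77-fold, 0.80 ± 0.19 in log2, limma adjusted p = 0.00517) and, set against ex-HSC, was lower in FL-HSC (0.527-fold, -0.92 ± 0.21 in log2, limma adjusted p = 0.0074). Without FL-HSC replicate 2 the calls in FL-HSC against ex-HSC were lost for Pgk1 (-0.59, adjusted p = 0.124) and Pgam1 (-0.71, adjusted p = 0.0799). A pseudogene, Pgam1-ps2, was listed at 4.24 to 12.4 FPKM, up to 10% of Pgam1 in the same library, and how reads shared by such copies were assigned is not stated.

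The other genes of that step did not pass in any comparison. Pgam2, the muscle form, averaged 1.88 ± 1.397 FPKM in FL-HSC, 1.36 ± 0.631 FPKM in ex-HSC and 1.94 ± 0.453 FPKM in pre-HSC, and Bpgm, which makes the regulator of hemoglobin 2,3-bisphosphoglycerate, averaged 12.4 ± 1.102 FPKM in FL-HSC, 10 ± 2.27 FPKM in ex-HSC and 13.5 ± 4.73 FPKM in pre-HSC (± SD, n = 2, 3 and 3).

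Eno1, the main enolase, had 399.6 and 286 FPKM in FL-HSC, 587, 427 and 605 FPKM in ex-HSC, and 261, 254 and 271 FPKM in pre-HSC. Its 3 ex-HSC libraries were the highest and its 3 pre-HSC libraries the lowest. Eno1 rose in ex-HSC against pre-HSC (2.06-fold, 1.03 ± 0.20 in log2, limma adjusted p = 0.00149), missed the threshold in FL-HSC against pre-HSC (0.37 ± 0.22, limma adjusted p = 0.198), and, set against ex-HSC, was lower in FL-HSC (-0.66 ± 0.22 in log2, limma adjusted p = 0.0401). Leaving out any 1 of 6 libraries ended that last call, with adjusted p from 0.0568 without pre-HSC replicate 3 to 0.279 without FL-HSC replicate 2. The remaining values were 0.068 and 0.0644 without pre-HSC replicates 1 and 2, and 0.109 and 0.102 without ex-HSC replicates 1 and 3.

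Eno2, known as the neuronal enolase, was low but had the largest rise of the enolases, with 1.47 and 2.52 FPKM in FL-HSC, 9.39, 3.29 and 4.82 FPKM in ex-HSC, and 0.991, 0.575 and 1.11 FPKM in pre-HSC. The 3 ex-HSC libraries were above the others, and replicate 1 was the highest of them. Eno2 rose in ex-HSC against pre-HSC (6.54-fold, 1.77 ± 0.31 in log2, limma adjusted p = 0.000913) and, set against ex-HSC, was lower in FL-HSC (-1.12 ± 0.35 in log2, limma adjusted p = 0.0321), where the call was lost without ex-HSC replicate 1 (adjusted p = 0.0702) or FL-HSC replicate 1 (0.177). Eno3, the muscle enolase, had 4.13 and 3.58 FPKM in FL-HSC, 8.01, 8.296 and 5.07 FPKM in ex-HSC, and 6.59, 5.29 and 5.22 FPKM in pre-HSC. The FL-HSC libraries were the 2 lowest, and ex-HSC and pre-HSC overlapped. Eno3 was lower in FL-HSC relative to ex-HSC (-0.72 ± 0.25 in log2, limma adjusted p = 0.0467), and every omission of 1 library but that of ex-HSC replicate 3 ended the call, with adjusted p of 0.0743, 0.072 and 0.0649 without pre-HSC replicates 1, 2 and 3, 0.105 and 0.0939 without ex-HSC replicates 1 and 2, and 0.0994 and 0.18 without FL-HSC replicates 1 and 2. Mast cell markers were also high in ex-HSC alone, with the sums given above, highest in replicate 1 at 4990 FPKM, against 2326 in replicate 2 and 2419 FPKM in replicate 3. Within ex-HSC, Eno2 was likewise highest in replicate 1, while Pgk1, Pgam1 and Eno1 were highest in replicate 3 and Eno3 in replicate 2. The part of mast cell RNA in the ex-HSC levels of Pgk1, Pgam1 and the enolases was not tested.

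Pkm, the pyruvate kinase of most tissues, had 694 and 569 FPKM in FL-HSC, 794, 551 and 819 FPKM in ex-HSC, and 518, 556 and 565 FPKM in pre-HSC. The ex-HSC libraries overlapped both other groups, and FL-HSC was above pre-HSC in both libraries. Pkm did not pass in FL-HSC against ex-HSC (-0.18 ± 0.21, limma adjusted p = 0.564), in FL-HSC against pre-HSC (0.20 ± 0.21, limma adjusted p = 0.474) or in ex-HSC against pre-HSC (0.38 ± 0.19, limma adjusted p = 0.135). Without ex-HSC replicate 2 it was called higher in ex-HSC than in pre-HSC (0.56, adjusted p = 0.0104). Gene-level values cannot separate its splice forms PKM1 and PKM2. The other pyruvate kinase gene, Pklr, of liver and red cells, is not among the 33 genes but bears on this step, with 86.8 and 69.7 FPKM in FL-HSC, 3.79, 2.08 and 3.24 FPKM in ex-HSC, and 0.263, 0.1798 and 0.3998 FPKM in pre-HSC. Both FL-HSC libraries were far above all others. Pklr rose in FL-HSC against pre-HSC (5.95 ± 0.25 in log2, limma adjusted p = 8.17e-08) and in ex-HSC against pre-HSC (1.64 ± 0.22 in log2, limma adjusted p = 0.000141), and was higher in FL-HSC relative to ex-HSC (4.31 ± 0.25 in log2, limma adjusted p = 2.25e-06). The 10 hepatocyte markers summed to 50.3 and 15.2 FPKM in FL-HSC, 2.55 to 3.83 FPKM in ex-HSC and 4.06 to 33.1 FPKM in pre-HSC, and the 11 erythroid markers in the table to 400.6 and 249.3, 213 to 230 and 719 to 982 FPKM in these groups. The pre-HSC erythroid sums were mostly the embryonic globins Hbb-y and Hbb-bh1, which fell in both other groups, while Klf1, Gata1 and Epor were among the genes that rose in FL-HSC against pre-HSC. Of the 11, 5 rose and 3 fell in FL-HSC (median 0.32), and 4 rose and 2 fell in ex-HSC (median 0.25), against pre-HSC. Of all genes tested, 22.9% rose and 20.4% fell in FL-HSC, and 15.7% rose and 28.4% fell in ex-HSC. The erythroid genes named here were picked after their values were seen. The part of hepatocyte and erythroid RNA in Pklr was not tested.

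Lactate dehydrogenase has 2 subunits, and the level of Ldhb set ex-HSC apart while that of Ldha set pre-HSC apart. Ldha, the subunit known for turning pyruvate into lactate, was the highest of the 33 genes in every library, with 2131 and 1404 FPKM in FL-HSC, 1704, 1170 and 1491 FPKM in ex-HSC, and 662, 735 and 785 FPKM in pre-HSC. All 5 FL-HSC and ex-HSC libraries were above all 3 pre-HSC libraries, and FL-HSC and ex-HSC overlapped. Ldha rose in FL-HSC (2.43-fold, 1.25 ± 0.24 in log2, limma adjusted p = 0.00156) and ex-HSC (2-fold, 0.99 ± 0.21 in log2, limma adjusted p = 0.003) against pre-HSC. Ldhb, the subunit known for the reverse reaction, had 40.6 and 43 FPKM in FL-HSC, 15.3, 7.43 and 16.9 FPKM in ex-HSC, and 37.3, 32.1 and 37.95 FPKM in pre-HSC. The 3 ex-HSC libraries were lowest, with replicate 2 the lowest of them, and FL-HSC was above pre-HSC in both libraries. Ldhb fell in ex-HSC against pre-HSC (0.369-fold, -1.44 ± 0.27 in log2, limma adjusted p = 0.00121) and was higher in FL-HSC relative to ex-HSC (3.17-fold, 1.67 ± 0.30 in log2, limma adjusted p = 0.00212), and missed the threshold in FL-HSC against pre-HSC (0.22 ± 0.30, limma adjusted p = 0.573). Its share of the step was 2.42% ± 0.779 in FL-HSC, 0.8803% ± 0.244 in ex-HSC and 4.71% ± 0.587 in pre-HSC.

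Lactate leaves through MCT1, encoded by Slc16a1, and MCT4, encoded by Slc16a3 and known as the exporter of glycolytic cells. Slc16a1 had 36.99 and 43.4 FPKM in FL-HSC, 26.5, 19.9 and 34.1 FPKM in ex-HSC, and 11.9, 12.7 and 12.1 FPKM in pre-HSC. FL-HSC was highest and pre-HSC lowest, with no overlap between the 3 groups. Slc16a1 rose in FL-HSC (3.29-fold, 1.64 ± 0.24 in log2, limma adjusted p = 0.000289) and ex-HSC (2.195-fold, 1.04 ± 0.21 in log2, limma adjusted p = 0.00223) against pre-HSC. In FL-HSC against ex-HSC it did not pass (0.59 ± 0.24, limma adjusted p = 0.0777), but did without ex-HSC replicate 3 (0.78, limma adjusted p = 0.0339). Slc16a3 had 58.5 and 53.2 FPKM in FL-HSC, 46.5, 28.8 and 40.9 FPKM in ex-HSC, and 33.2, 38.4 and 34.1 FPKM in pre-HSC. FL-HSC was above every other library, and ex-HSC and pre-HSC overlapped. Slc16a3 rose in FL-HSC against pre-HSC (0.65 ± 0.23 in log2, limma adjusted p = 0.0386), and leaving out any 1 of the FL-HSC or pre-HSC libraries ended the call, with adjusted p of 0.176 and 0.0928 without FL-HSC replicates 1 and 2, and 0.115, 0.0639 and 0.0905 without pre-HSC replicates 1, 2 and 3. It did not pass in ex-HSC against pre-HSC (0.11 ± 0.20, limma adjusted p = 0.694). Of their sum, Slc16a1 made up 41.8% ± 4.35 in FL-HSC, 40.9% ± 4.58 in ex-HSC and 25.8% ± 0.856 in pre-HSC.

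Pyruvate dehydrogenase kinases switch off the enzyme that feeds pyruvate to the citric acid cycle, and Pdk2 was the one whose levels did not overlap between any 2 groups. Pdk2, a widely expressed form, had 13.4 and 14.5 FPKM in FL-HSC, 2.57, 1.61 and 2.74 FPKM in ex-HSC, and 7.101, 5.71 and 7.31 FPKM in pre-HSC. The 3 groups did not overlap, with FL-HSC highest and ex-HSC lowest. Pdk2 rose in FL-HSC (2.08-fold, 0.96 ± 0.24 in log2, limma adjusted p = 0.00766) and fell in ex-HSC (0.344-fold, -1.23 ± 0.21 in log2, limma adjusted p = 0.000735) against pre-HSC, and was higher in FL-HSC relative to ex-HSC (6.05-fold, 2.19 ± 0.24 in log2, limma adjusted p = 9.73e-05). Pdk3 had 34.5 and 32.5 FPKM in FL-HSC, 32.5, 23.6 and 35.6 FPKM in ex-HSC, and 16.7, 17.4 and 17.4 FPKM in pre-HSC. FL-HSC lay within the range of ex-HSC, and both were above pre-HSC. Pdk3 rose in FL-HSC (0.93 ± 0.21 in log2, limma adjusted p = 0.00538) and ex-HSC (0.78 ± 0.19 in log2, limma adjusted p = 0.00702) against pre-HSC.

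Pdk1, a known target of hypoxia-inducible factors, was the highest of the 4 genes in every library, with 39.1 and 52.2 FPKM in FL-HSC, 38.6, 26.8 and 40.8 FPKM in ex-HSC, and 31.7, 29.2 and 27.5 FPKM in pre-HSC. FL-HSC was above pre-HSC in both libraries, and ex-HSC overlapped both groups. Pdk1 did not pass in FL-HSC (0.60 ± 0.23, limma adjusted p = 0.0572) or ex-HSC (0.24 ± 0.21, limma adjusted p = 0.386) against pre-HSC. Without ex-HSC replicate 2 it was called in both, at 0.60 in FL-HSC (adjusted p = 0.0116) and 0.42 in ex-HSC (adjusted p = 0.0497). Pdk4, known to be induced by fasting, was listed at 0 and 0.222 FPKM in FL-HSC, 0.529, 0.216 and 0.0108 FPKM in ex-HSC, and 0.5395, 1.59 and 0.431 FPKM in pre-HSC. It was highest in pre-HSC replicate 2, stayed under the filter and was not tested.

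The ratio of 2 isoenzyme genes within a library does not depend on that library's scaling, apart from the pseudocount of 1. For 17 pairs the log2 ratio was compared between the 3 groups by an exact permutation test over all 560 assignments of the 8 libraries. Its statistic was the sum of squares between the groups, which has no direction and does not say which groups differ. The p-values were adjusted by Benjamini-Hochberg over the 17. The smallest p this test can give is 0.00357. Of the 17 ratios, 11 passed an adjusted p of 0.05. Pairs of groups were not tested, since 3 libraries against 3 cannot go below a two-sided p of 0.1.

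The log2 ratio of Slc2a3 to Slc2a1 was 0.15 and 0.13 for FL-HSC, -0.16, -0.11 and -0.15 for ex-HSC, and -3.02, -3.57 and -3.32 for pre-HSC (exact permutation p = 0.00357, adjusted p = 0.0152). The transporters were thus near equal in FL-HSC and ex-HSC, and pre-HSC was lower in every library. That of Hk2 to Hk1 was -3.25 and -2.85 for FL-HSC, -1.27, -1.34 and -0.67 for ex-HSC, and -1.87, -2.33 and -1.61 for pre-HSC (exact permutation p = 0.00357, adjusted p = 0.0152). FL-HSC was lowest and ex-HSC highest, with no overlap between the 3 groups. For Ldhb to Ldha it was -5.68 and -5.00 for FL-HSC, -6.71, -7.12 and -6.38 for ex-HSC, and -4.11, -4.48 and -4.34 for pre-HSC (exact permutation p = 0.00357, adjusted p = 0.0152). Here ex-HSC was lowest and pre-HSC highest, again with no overlap. Aldoc to Aldoa reached the same p, with -7.349 and -6.327 for FL-HSC, -7.652, -7.505 and -7.408 for ex-HSC, and -7.656, -7.979 and -8.12 for pre-HSC. Aldoc is low, so the pseudocount matters here. Without it FL-HSC and ex-HSC overlapped, with a lowest FL-HSC ratio of 0.004442 and a highest ex-HSC ratio of 0.004536.

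The ratio of Pfkp to Pfkl was -3.06 and -3.01 for FL-HSC, -1.57, -1.56 and -1.73 for ex-HSC, and -2.38, -2.77 and -2.51 for pre-HSC (exact permutation p = 0.00714, adjusted p = 0.0243). Ex-HSC was highest and FL-HSC lowest, without overlap. That of Pfkm to Pfkl was -2.15 and -1.89 for FL-HSC, -2.17, -2.23 and -2.10 for ex-HSC, and -2.02, -2.32 and -2.18 for pre-HSC, overlapped in all 3 groups and did not pass (exact permutation p = 0.475, adjusted p = 0.475). The ratio of Pdk2 to Pdk3 was -1.30 and -1.11 for FL-HSC, -3.23, -3.24 and -3.29 for ex-HSC, and -1.13, -1.45 and -1.15 for pre-HSC (exact permutation p = 0.0286, adjusted p = 0.0486). It was lowest in all 3 ex-HSC libraries, and FL-HSC and pre-HSC overlapped. For Slc16a3 to Slc16a1 it was 0.65 and 0.29 for FL-HSC, 0.79, 0.51 and 0.26 for ex-HSC, and 1.41, 1.53 and 1.42 for pre-HSC (exact permutation p = 0.0321, adjusted p = 0.0497). All 3 pre-HSC libraries were above the 5 others.

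The remaining ratios that passed were Hk3 to Hk1 (adjusted p = 0.0304), Pfkfb2 to Pfkfb3 (0.0347), Pfkfb4 to Pfkfb3 (0.0486) and Pdk4 to Pdk3 (0.0455), all by the exact permutation test. The last of these was lost with a pseudocount of 0.1 (exact permutation, adjusted p = 0.105). Those of Bpgm to Pgam1 (0.0506), Pgam2 to Pgam1 (0.0514), Pdk1 to Pdk3 (0.0607), Eno3 to Eno1 (0.162) and Eno2 to Eno1 (0.235) did not pass in that test. With 7 libraries there are fewer assignments, and 0 ratios passed without FL-HSC replicate 2, ex-HSC replicate 1 or ex-HSC replicate 2. The count was 6 without FL-HSC replicate 1, 7 without ex-HSC replicate 3 and 7 without pre-HSC replicate 2.

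**Figure D4:**
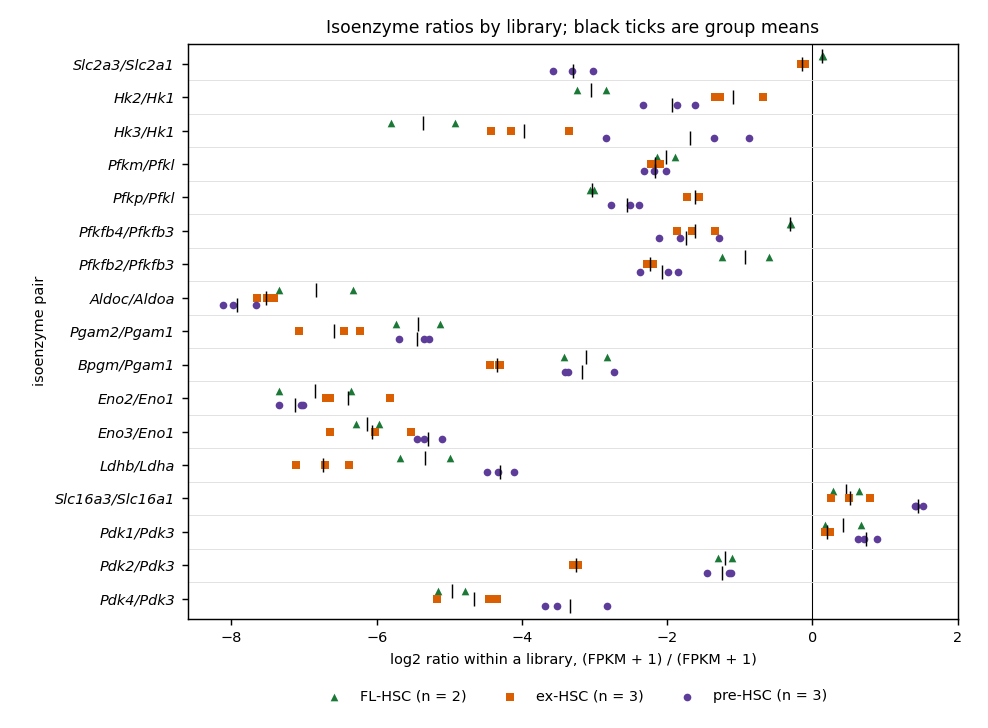
Log2 ratio of 2 isoenzyme genes within a library, (FPKM + 1) over (FPKM + 1), on the horizontal axis for 17 pairs, with 1 symbol per library: triangles for FL-HSC (n = 2), squares for ex-HSC (n = 3) and circles for pre-HSC (n = 3). Black ticks are group means. The ratio of Slc2a3 to Slc2a1 lies near 0 in FL-HSC and ex-HSC and between -3.57 and -3.02 in pre-HSC, and that of Pdk2 to Pdk3 lies between -3.29 and -3.23 in ex-HSC and between -1.45 and -1.11 in all other libraries.

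Around the core pathway, 12 further lists of genes were counted. Of all genes tested, 22.9% were called higher and 20.4% lower in FL-HSC against pre-HSC (median log2 fold change 0.13), and 15.7% higher and 28.4% lower in ex-HSC against pre-HSC (median -0.16). Of 8 pentose phosphate genes, whose enzymes branch off glucose 6-phosphate, 5 rose and 0 fell in FL-HSC (median 0.88) and 4 rose and 0 fell in ex-HSC (median 0.56) against pre-HSC. Rpia, which makes ribose 5-phosphate, had 73.1 and 64.9 FPKM in FL-HSC, 33.8, 28.99 and 41.8 FPKM in ex-HSC, and 13.7, 14.3 and 17.5 FPKM in pre-HSC. It was highest in FL-HSC and lowest in pre-HSC with no overlap, and rose in FL-HSC (2.12 ± 0.22 in log2, limma adjusted p = 2.38e-05) and ex-HSC (1.14 ± 0.19 in log2, limma adjusted p = 0.000683). Of 16 citric acid cycle genes, 6 rose in FL-HSC (median 0.48) and 4 in ex-HSC (median 0.23) against pre-HSC, and 0 fell in either, beside the 22.9% and 15.7% of all genes that rose. Among 10 tested genes of pyruvate dehydrogenase and pyruvate import, 4 rose in FL-HSC (median 0.47) and 3 in ex-HSC (median 0.25), and 0 fell. Mpc1, a subunit of the mitochondrial pyruvate carrier, had 34.1 and 32.3 FPKM in FL-HSC, 59.4, 44.4 and 63.4 FPKM in ex-HSC, and 15.4, 15.03 and 16.9 FPKM in pre-HSC. It was highest in all 3 ex-HSC libraries and lowest in all 3 pre-HSC libraries. Mpc1 rose in FL-HSC (1.03 ± 0.21 in log2, limma adjusted p = 0.00241) and ex-HSC (1.74 ± 0.19 in log2, limma adjusted p = 2.2e-05) against pre-HSC. Of 8 tested genes of the NADH shuttles, which move electrons into mitochondria, 5 rose in FL-HSC (median 0.84) and 4 in ex-HSC (median 0.54), and 0 fell.

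Genes outside glycolysis that are known to respond to hypoxia were counted in the same way. Of 20 tested, 1 was higher and 8 lower in FL-HSC relative to ex-HSC, with a median log2 fold change of -0.61, while of all genes tested 24.1% were higher and 9.15% lower, with a median of 0.27. Against pre-HSC, 3 rose and 6 fell in FL-HSC (median -0.31, where 22.9% of all genes rose and 20.4% fell), and 8 rose and 2 fell in ex-HSC (median 0.36, where 15.7% rose and 28.4% fell). Ero1l, an oxidase of the endoplasmic reticulum, had 11.3 and 13.9 FPKM in FL-HSC, 198, 86.3 and 116 FPKM in ex-HSC, and 16.5, 18.8 and 15.7 FPKM in pre-HSC. All 3 ex-HSC libraries were the highest. Ero1l rose there against pre-HSC (2.82 ± 0.27 in log2, limma adjusted p = 1.03e-05) and, set against ex-HSC, was lower in FL-HSC (-3.23 ± 0.30 in log2, limma adjusted p = 4.16e-05). Bhlhe40, a transcriptional repressor, had 0.567 and 0.986 FPKM in FL-HSC, 49.5, 32.1 and 57.1 FPKM in ex-HSC, and 5.48, 7.999 and 7.06 FPKM in pre-HSC. Ex-HSC was highest and FL-HSC lowest without overlap. Loxl2 went the other way, with 0.708 and 1.198 FPKM in FL-HSC, 9.90, 3.79 and 2.96 FPKM in ex-HSC, and 42.6, 35.8 and 29.9 FPKM in pre-HSC. It fell in FL-HSC (-4.25 ± 0.38 in log2, limma adjusted p = 9.24e-06) and ex-HSC (-2.63 ± 0.34 in log2, limma adjusted p = 9.95e-05) against pre-HSC. Ddit4 (-2.84) and P4ha2 (-2.40) fell in FL-HSC against pre-HSC and were not called in ex-HSC against pre-HSC. Of 10 genes that encode or regulate hypoxia-inducible factors, 3 rose and 3 fell in FL-HSC (median 0.075), and 0 rose and 5 fell in ex-HSC (median -0.53), against pre-HSC. Epas1, which encodes HIF-2 alpha and is abundant in endothelium, had 0.9804 and 1.19 FPKM in FL-HSC, 0.866, 0.512 and 0.762 FPKM in ex-HSC, and 48.9, 55.6 and 43.4 FPKM in pre-HSC. It was low in all 5 FL-HSC and ex-HSC libraries, and fell in FL-HSC (-4.59 ± 0.22 in log2, limma adjusted p = 1.37e-07) and ex-HSC (-4.88 ± 0.20 in log2, limma adjusted p = 3.01e-08) against pre-HSC, as did the endothelial markers, whose part in it was not tested.

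Regulators of glycolysis held 13 tested genes, of which 4 rose and 1 fell in FL-HSC (median 0.42), and 1 rose and 1 fell in ex-HSC (median -0.31), against pre-HSC. Of all genes tested, 22.9% rose and 20.4% fell in FL-HSC, and 15.7% rose and 28.4% fell in ex-HSC. Myc had 144 and 121 FPKM in FL-HSC, 41.4, 16.8 and 38.4 FPKM in ex-HSC, and 26.04, 34.2 and 28.6 FPKM in pre-HSC. Both FL-HSC libraries were the highest, and ex-HSC and pre-HSC overlapped. Myc rose in FL-HSC against pre-HSC (2.13 ± 0.34 in log2, limma adjusted p = 0.000517) and was higher than in ex-HSC (2.10 ± 0.34 in log2, limma adjusted p = 0.00111). Mycn, its relative, rose in FL-HSC (1.60 ± 0.36 in log2, limma adjusted p = 0.00455) and fell in ex-HSC (-1.01 ± 0.32 in log2, limma adjusted p = 0.026) against pre-HSC. Of 6 tested genes of other glucose transporters, 0 rose and 2 fell in FL-HSC (median -0.23), and 1 rose and 4 fell in ex-HSC (median -0.95), against pre-HSC. The 1 that rose was Slc2a6, of a transporter known from myeloid cells, with 0.0537 and 0.0129 FPKM in FL-HSC, 37.4, 26.7 and 27.99 FPKM in ex-HSC, and 0.657, 0.0617 and 0.279 FPKM in pre-HSC. Its 3 ex-HSC libraries were far above the others, and it rose against pre-HSC (4.58 ± 0.23 in log2, limma adjusted p = 8.19e-08). Mast cell markers moved with Slc2a6, Ero1l and Bhlhe40 in ex-HSC, and their part was not tested. Of 7 tested further glycolysis genes, 1 rose and 0 fell in FL-HSC (median -0.19), and 1 rose and 2 fell in ex-HSC (median -0.38), against pre-HSC, Pklr being the one that rose.

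Of 14 genes of glycogen metabolism, 3 rose and 2 fell in FL-HSC (median 0.17) and 2 rose and 5 fell in ex-HSC (median -0.27) against pre-HSC, shares near those of all genes tested, of which 22.9% rose and 20.4% fell in FL-HSC and 15.7% rose and 28.4% fell in ex-HSC. In FL-HSC relative to ex-HSC, 6 of the 14 were higher and 0 lower (median 0.47), against 24.1% and 9.15% of all genes tested. Of 5 tested genes of gluconeogenesis, 2 rose and 0 fell in FL-HSC (median 0.48) and 1 rose and 1 fell in ex-HSC (median 0.14). Of 7 genes of the hexosamine pathway, 0 rose and 1 fell in FL-HSC (median -0.033) and 1 rose and 1 fell in ex-HSC (median -0.40). The 18 proliferation genes, of which 5 rose and 0 fell in FL-HSC (median 0.30) and 1 rose and 2 fell in ex-HSC (median -0.10) against pre-HSC, summed to 2451 and 2071 FPKM in FL-HSC, 1337 to 1997 FPKM in ex-HSC and 1658 to 1715 FPKM in pre-HSC.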

How the data were processed

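RNA of the 8 libraries was selected by poly(A) and sequenced in pairs on a HiSeq2500, per the labels' protocols. The authors deposited 1 table of FPKM per gene for all libraries, and per the submitters' processing notes the build was mm9 and the tools include edgeR, DESeq, Cufflinks and featureCounts, with no version or role given. Of 33531 rows, 27 carried dates in place of gene names and were left out. Low values did not fall on steps of whole reads (at most 0.472% shared the commonest ratio), so no counts were recovered. Here, log2(FPKM + 1) of the 13720 genes that reached 1 FPKM in 2 or more libraries was fitted in limma 3.58.1 (R 4.3.3) with 1 mean per group, all 8 libraries and an intensity trend, and p-values were adjusted by Benjamini-Hochberg over all genes, with 0.05 as the threshold. Intensity trend means that the prior variance depends on the mean level. The script was tested on simulated data. Isoenzyme ratios were tested by exact permutation. Promoters were read from RefSeq on GRCm38.p6, since no mm9 genome was used here. The glycolysis genes and 22 further lists were chosen with earlier results of these data known. All glycolysis genes are reported. Of other pathway lists, at most the 3 called genes with the largest fold change per list and comparison are named. The alternatives were a pseudocount of 0.1, a filter of 5 FPKM or none, quantile normalization, median-of-ratios scaling, no trend, a replicate block, fits of only the groups compared, isolated zeros taken as missing, and each library left out in turn. With 1 FL-HSC library left, that library is assumed to vary like the other groups. Gene models of some members overlap others (GENCODE M21), among them Pfkp with Pitrm1 on the opposite strand, and whether counting used strand is not given in the sources used here.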

Additional observations from a re-analysis of the deposited data

How the results depend on the processing

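No member that was called changed sign in any of the 18 settings per result. In every setting that tested the gene, 16 of 19 calls in ex-HSC against pre-HSC were made, 14 of 17 in FL-HSC against pre-HSC and 5 of 11 in FL-HSC against ex-HSC. Aldoc and Eno2, counted here, were tested in 17 of the settings, as the filter of 5 FPKM removed them. With that filter, 12 genes were called higher in ex-HSC and 13 in FL-HSC against pre-HSC. The count of genes called in FL-HSC against ex-HSC was 11, and was 17 with quantile normalization, 7 with only these groups in the fit and 6 to 13 with 1 library left out. Its 6 lower calls became 3 with no filter, 10 with quantile normalization, 11 with median-of-ratios scaling, 2 with only these groups, 11 with median-of-ratios scaling and ex-HSC replicate 2 left out (a setting chosen after seeing the data), and 1 to 8 with 1 library left out. Calls were lost with no filter for Eno1 (adjusted p = 0.0939), Eno2 (0.119) and Eno3 (0.0996) in FL-HSC against ex-HSC, for Gpi1 (0.0762), Pfkfb1 (0.0788) and Slc16a3 (0.0642) in FL-HSC against pre-HSC, and for Pfkfb1 (0.0521) in ex-HSC against pre-HSC, all in limma. With only the groups compared in the fit, calls in FL-HSC against ex-HSC were lost for Eno1 (0.116), Eno2 (0.0632), Eno3 (0.133) and Pgk1 (0.0596). The 3 lower calls in FL-HSC against pre-HSC became 5 with quantile normalization. Those added were Pgam1 (-0.41, limma adjusted p = 0.00581) and Gapdh (-0.38, limma adjusted p = 0.024). The 11 isoenzyme ratios became 0 to 8 with 1 library left out, where fewer assignments exist. The median over the glycolysis genes in FL-HSC against ex-HSC was -0.025 with quantile normalization, -0.064 with median-of-ratios scaling and -0.15 with that scaling and ex-HSC replicate 2 left out. Whether replicate numbers pair the libraries is not stated in the labels. Deviations of same-numbered libraries from their group means correlated at -0.11 to 0.14. With groups of 2 or 3 libraries these correlations cannot decide it. With the replicate block, 14 genes rose and 5 fell in ex-HSC and 14 rose and 2 fell in FL-HSC against pre-HSC, and 6 were higher and 6 lower in FL-HSC relative to ex-HSC. The block ended the call of Pfkfb1 in FL-HSC against pre-HSC (-0.71, limma adjusted p = 0.0715) and made that of Tpi1 in FL-HSC against ex-HSC (0.59, limma adjusted p = 0.0402).

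The changes of sign were all in genes that were not called, or in the median above, and their cause was not tested. In FL-HSC against ex-HSC, median-of-ratios scaling gave Bpgm -0.0087, Hk2 -0.048, Ldha -0.081, Pdk3 -0.19, Pfkfb1 -0.28 and Pfkp -0.31, and with ex-HSC replicate 2 also left out Aldoc -0.051, Bpgm -0.057, Hk2 -0.31, Ldha -0.087, Pdk1 -0.017, Pdk3 -0.22, Pfkfb1 -0.37 and Pfkp -0.32. Quantile normalization gave Bpgm -0.010, Hk2 -0.040, Pdk3 -0.17, Pfkfb1 -0.26 and Pfkp -0.31, and the replicate block gave Gpi1 0.043 and Slc2a3 0.0039. With 1 library left out, values ran from -0.038 to 0.58 for Aldoc, -0.25 to 0.11 for Gpi1, -0.11 to 0.54 for Hk2, -0.034 to 0.57 for Ldha, -0.021 to 0.26 for Pdk3, -0.20 to 0.16 for Pfkfb1, -0.12 to 0.16 for Pfkp, -0.28 to 0.75 for Pgam2 and -0.31 to 0.066 for Slc2a3. In FL-HSC against pre-HSC, Pfkfb2 was -0.043 with median-of-ratios scaling and -0.045 with ex-HSC replicate 2 also left out, quantile normalization gave Pgam2 0.27, Pgk1 -0.032 and Pkm -0.077, and the replicate block gave Bpgm 0.12 and Pgam2 0.022. With 1 library left out, values ran from -0.20 to 0.19 for Bpgm, -0.45 to 0.18 for Gapdh, -0.20 to 0.37 for Pfkfb2, -0.33 to 0.094 for Pgam1 and -0.62 to 0.41 for Pgam2. In ex-HSC against pre-HSC, Pfkfb3 was 0.045 with median-of-ratios scaling and 0.18 with quantile normalization, which also gave Pfkfb2 0.20 and Pgam2 0.15. With 1 library left out, values ran from -0.30 to 0.078 for Pfkfb3, -0.36 to 0.21 for Pfkfb4, -0.034 to 0.24 for Pfkl, -0.033 to 0.28 for Pfkm and -0.035 to 0.30 for Slc16a3. Depth is unknown, and FL-HSC rests on 2 libraries.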
